A study of Mus musculus with 12 samples.

Results

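The genes described are 6 members of the interleukin-1 (IL-1) and IL-33 axis, chosen by name and not by their values: the ligand gene Il33, the antagonist gene Il1rn, the receptor genes Il1r1, Il1rap and Il1rl1, and the decoy receptor gene Il1r2. They are 6 of the 27998 genes counted in each library. Their levels were followed across cell classes named from marker genes, across fibroblast subsets and across libraries.

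The study measured RNA in single cells from hind limb joints of mice with serum transfer-induced arthritis, a joint inflammation that subsides by itself. Its 12 libraries fall into 4 groups of 3, and each library pools cells from 3 animals, so that animals cannot be told apart within a library. All animals were WT males of strain C57BL/6, 8 to 10 weeks old by the study's methods. Libraries labelled rest (day 0) came from animals given no serum. Animals of the other groups were given 100 µl of serum from K/BxN mice intravenously. The label peak stands for days 7 to 9 after it, the label resolving for day 15 and the label resolved for day 22. CD45-negative cells were sorted and prepared with the 10x 3′ version 2 kit, which counts unique molecular identifiers (UMIs), each standing for 1 captured RNA molecule.

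IL-1 acts through the receptor IL1R1 and IL-33 through ST2, the product of Il1rl1; both receptors pair with the shared chain IL1RAP to signal through MyD88. The antagonist IL1RN occupies IL1R1 without signalling, and IL1R2 binds IL-1 but cannot pass on a signal. IL-33 is stored in nuclei of stromal cells and released on damage, and in synovial fibroblasts IL-1 is known to induce chemokines, prostaglandin synthesis and matrix-degrading enzymes.

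The libraries group against their labels. Each library carries its own barcode suffix, from 1 to 12, and the suffixes were taken as 4 runs of 3 consecutive numbers. Run 1 holds rest replicate 1, peak replicate 1 and resolving replicate 1. Run 2 holds resolved replicate 1, rest replicate 2 and peak replicate 2. Run 3 holds resolving replicate 2, resolved replicate 2 and rest replicate 3. Run 4 holds peak replicate 3, resolving replicate 3 and resolved replicate 3. Over 11707 genes in fibroblasts, the library nearest to each library lay in the same run for 12 of 12 libraries and had the same label for 0 of 12. The suffixes have no gap from 1 to 12, so the barcodes alone do not set where a run ends. Which label belongs to which cells cannot be told from the files. Results are therefore given by label, as the study names the libraries, and by run.

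Of 21042 deposited cells 20060 were kept, with 1227 to 2747 cells (median 1577) and 7468914 to 16566202 UMIs (median 9838292) per library. The median UMIs per deposited cell were 5358 in each of the 12 libraries. No barcode sequence was shared between libraries (0 shared barcodes). Mitochondrial genes took a median of 2.11% to 2.86% of the UMIs of a library's cells.

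Marker lists named 12 classes among 25 clusters. Fibroblasts were the largest class, with 10241 cells in 9 clusters and 3195841 to 11863920 UMIs per library; they made up 31.6% to 69.3% of a library's cells. Vascular endothelial cells (1769), osteoblasts (1392), tenocytes (703) and perivascular cells (657) were also counted in 12 of 12 libraries at 10 cells or more. Lymphatic endothelial cells (186) reached 10 cells in 10 libraries, chondrocytes (312) and muscle cells (264) in 8 each, proliferating cells (718) in 6, Schwann cells (107) and immune cells (112) in 3 each, and erythroid cells (60) in 2. All 6 libraries with 10 or more proliferating cells belonged to runs 2 and 3, and the cluster carried 7 of 7 fibroblast markers. A CD45-negative sort should remove immune cells, and the 112 found carried neutrophil markers, with S100a8 the most abundant, as well as 7 of 7 monocyte and macrophage genes at 7822 to 24217 CPM in all. A further 3539 cells were left unnamed, of which 3407 were in 3 clusters with fibroblast markers whose leading genes were Fbln7, Cytl1 and Nppc.

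The first comparison asked which cells of the joint carry each transcript. UMIs were summed per class and library and given in CPM (counts per 1000000 UMIs of that sum); fibroblasts were compared with each other class by edgeR's quasi-likelihood test, with the library as a block and Benjamini-Hochberg adjustment over 9896 genes. Called means an adjusted p under 0.05 together with a log2 fold change beyond 0.5, up or down. All 6 genes passed the filter on low counts. That filter asks for a minimum count in only as many sums as the smallest class has, here 2. A gene can therefore pass through 1 small class where it is high. Outside immune cells no sum of Il1rn was above 8.80 CPM, and outside Schwann cells none of Il1rap was above 31.3. Which sums let these genes pass was not examined. Their calls against those classes may therefore not be independent of the filter. Since the counts come from 3′ ends and are not scaled to transcript length, levels are compared between cells and not between genes.

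Against vascular endothelial cells all 6 genes were called higher in fibroblasts, where 26.7% of all genes tested were higher and 26.6% lower. Against lymphatic endothelial cells 4 were higher (Il1r1, Il1r2, Il1rl1 and Il33), beside 26.2% of genes higher and 13.0% lower. The endothelial classes were thus poor in most of these transcripts. Against perivascular cells 2 were higher (Il1rn and Il1rl1) and 1 lower (Il1r1), beside 22.8% and 17.6%. Against osteoblasts 5 were higher and Il1rap lower, beside 17.1% and 13.5%. Against chondrocytes 5 were higher, all but Il1rap, beside 27.8% higher and 19.6% lower. Of the chondrocyte calls, Il1r1 was lost with cells thinned to 2000 UMIs (adjusted p = 0.0599), and Il1rl1 was lost under DESeq2 (0.128), with thinning (0.0561) and without run 2 (0.24). Against tenocytes 3 were higher (Il1r1, Il1r2 and Il1rl1) and Il33 lower, beside 14.5% and 8.47%. Against muscle cells 4 were higher (Il1r1, Il1r2, Il1rl1 and Il33), beside 27.0% higher and 11.4% lower. The muscle call of Il33 was lost without run 1 (log2 1.84, adjusted p = 0.117). Without resolving replicate 3, which held the 6 Il33 UMIs of muscle cells, its log2 value moved from 2.71 to 8.66. Against proliferating cells Il1r2 was higher and Il1rl1 lower, beside 17.4% and 9.01%. The remaining classes rest on 2 or 3 libraries. Against Schwann cells Il1r1 was higher and Il1rap lower, beside 10.9% and 5.64%. Against immune cells 3 were higher (Il1r1, Il1rl1 and Il33) and 2 lower (Il1r2 and Il1rn), beside 20.2% and 11.5%. Against erythroid cells 1 was higher (Il1r1), beside 9.27% higher and 5.99% lower. Some of these calls depend on 1 library or on the processing. Il33 against immune cells was not called without peak replicate 2, resolving replicate 2 or resolving replicate 3 (adjusted p from 0.052 to 0.623), Il1r1 against Schwann cells not without peak replicate 3 (0.0626), and Il1r1 against erythroid cells not without rest replicate 2 (0.239). The call of Il33 against immune cells was also lost under DESeq2 (0.0689), with the highest doublet scores removed (0.0689), with RLE factors (0.0626), with thinning (0.109) and without run 2 (0.556). Without run 3, which leaves 1 library with immune cells, its log2 value was 9.11 in place of 3.34. That of Il1r1 against erythroid cells was also lost under DESeq2 (0.0929), with RLE factors (0.0643), with thinning (0.0701) and with no library block (0.112), and that of Il1r1 against Schwann cells with thinning (0.199). Without run 4, which leaves 1 library with Schwann cells, the log2 value of Il1r1 was 2.38 in place of 3.69.

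In all, 35 of 66 comparisons were called higher and 7 lower in fibroblasts. Of all genes, 9.27% to 27.8% were higher and 5.64% to 26.6% lower, depending on the class. The lower calls lie within that range and do not set the members apart from other genes. Among classes with sums in 6 or more libraries the counts of members were 30 higher and 4 lower of 48. Each of the 7 lower calls kept its direction in every run that had sums, and so did 34 of the 35 higher calls. The exception was Il1rl1 against osteoblasts, described with that gene. The 7 lower calls came from 6 classes and took in each of the 6 genes at least once.

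**Figure D1:**
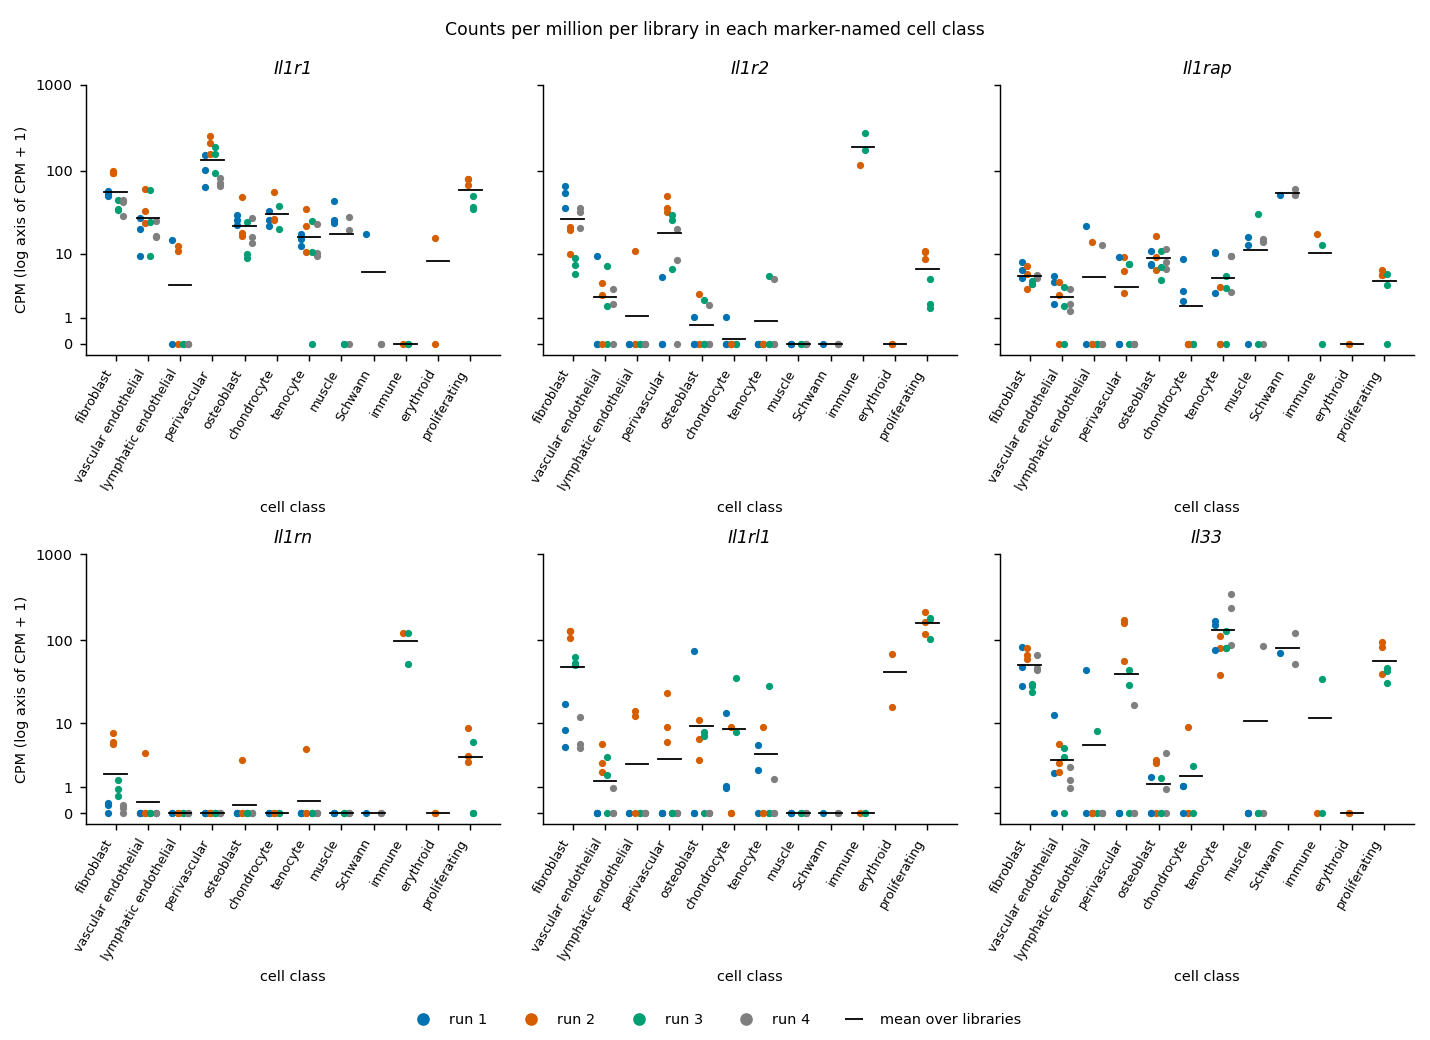
Level of each gene in CPM (vertical, log axis of CPM + 1) in the 12 marker-named cell classes (horizontal). Each point is 1 library, coloured by its run of barcode suffixes, and bars are means over libraries. By these means Il33 is highest in tenocytes, Il1rn and Il1r2 in immune cells and Il1r1 in perivascular cells. Il1rap is highest in Schwann cells and Il1rl1 in proliferating cells, which have sums in runs 2 and 3 alone.

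Il33 encodes the alarmin ligand. Its level in fibroblasts was 24.5 CPM in the lowest library, 47.5 in the median and 82.9 in the highest. In tenocytes the same values were 39.4, 100.1 and 345 CPM. Tenocytes were the higher class in 11 of 12 libraries although the ranges overlap, and rest replicate 2 was the exception, with 39.4 CPM in tenocytes and 80.3 in fibroblasts. Fibroblasts over tenocytes came to −1.50 on the log2 scale (SE 0.24, adjusted p = 2.31e-07). By run, tenocytes averaged 132, 77.5, 97.1 and 224 CPM in runs 1 to 4, against 53.3, 69.1, 27.8 and 52.6 CPM in fibroblasts, so the order of the classes was the same in each run.

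Schwann cells also lay above the fibroblasts of their own libraries for Il33, at 52.5, 70.3 and 122 CPM in 3 of 3, but this was not called (log2 −0.62, adjusted p = 0.68). At the other end, Il33 in vascular endothelial cells had a median of 2.23 CPM and a highest value of 12.8, below every fibroblast value. The log2 fold change of fibroblasts over them was 4.37 (SE 0.41, adjusted p = 1.16e-16; higher in 12 of 12). Osteoblasts were lower still, at 0 to 3.92 CPM (log2 5.42, adjusted p = 3.38e-17; higher in 12 of 12). Erythroid cells had 0 UMIs, which puts fibroblasts at least 3.21-fold higher against a floor of 3 counts over the class. This comparison was not called by edgeR, but it was by DESeq2 (adjusted p = 0.0478) and by edgeR without the filter on low counts (0.0455).

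Perivascular cells gave uneven Il33 values. Their level ran from 0 through a median of 8.36 to 171 CPM, and 6 of 12 libraries had 0. The mean by run was 0, 129, 24.9 and 5.57 CPM, and run 2 held 132 of the 160 UMIs. With all libraries the difference from fibroblasts was not called (log2 0.26, adjusted p = 0.495; fibroblasts higher in 8 of 12). Without the 3 libraries of run 2 it was (log2 1.72, adjusted p = 0.000273).

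In shares of cells, at least 1 Il33 UMI was found in 15.9% of fibroblasts (95% Wilson interval 15.2% to 16.6%; median depth 5962 UMIs) and in 24.2% of tenocytes (21.2% to 27.5%; 4334 UMIs). Among osteoblasts, at a median of 5268 UMIs, the share was 0.575%. With each cell thinned to 2000 UMIs these shares were 7.52%, 14% and 0.291%. The fibroblast and tenocyte shares are thus far above the osteoblast share at equal depth, and tenocytes stay ahead of fibroblasts. These intervals and floors, here and below, cover counting error only.

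Among the 9 fibroblast subsets, named here by their leading gene, Il33 had no single peak. Its mean was 87.3 CPM in the Pi16 subset, 87.3 in the Ccl11 subset and 82.2 in the Inmt subset, and the Ccl11 subset was highest in only 4 of 12 libraries. The Prg4 subset, which carried lining markers, averaged 3.13 CPM and stayed between 0 and 13.1 CPM, below the lowest library of each of those 3 subsets (34.9, 36.9 and 42.9 CPM). By the mean over libraries, lining-like fibroblasts were therefore the subset with least Il33. Within run 4 the Hp subset was lower, at a mean of 1.75 CPM against 5.91 in the Prg4 subset. Subsets are clusters of the same cells, so differences between them are described and not tested.

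Il1rn encodes the IL-1 receptor antagonist. It was scarce in fibroblasts, at 0 CPM in the lowest library, 0.452 in the median and 7.44 in the highest, from 149 UMIs in all. In immune cells it reached 52.3, 121 and 122 CPM in the 3 libraries, from 38 UMIs. All 3 immune values exceed every fibroblast value. Compared with immune cells, fibroblasts stood at a log2 ratio of −5.08 (SE 0.50, adjusted p = 3.34e-12 by edgeR), with −5.94 without peak replicate 2 and −4.41 without resolved replicate 2. DESeq2 gave −5.83 with an adjusted p of 0.244, and it called none of the 5 Il1rn comparisons that edgeR called. Perivascular cells had 0 Il1rn UMIs in 12 libraries, so fibroblasts were at least 2.20-fold higher. Without upper limits on UMIs and genes this difference was 0.22 and not called (adjusted p = 0.775). Chondrocytes had 0 UMIs in 8 libraries, and fibroblasts were at least 3.67-fold higher, although this call was lost without any 1 of peak replicate 2, resolved replicate 1, resolving replicate 2 and rest replicate 2 (adjusted p from 0.0534 to 0.0974), with thinning (0.323) and without run 1 (0.0959) or run 3 (0.0558). Without upper limits the chondrocyte difference reversed to −0.86 and was not called (0.189). Without the 3 libraries of run 2 none of the 4 comparisons in which Il1rn was called higher in fibroblasts was called (adjusted p from 0.13 to 0.342).

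An Il1rn UMI was found in 27.7% of immune cells (20.2% to 36.6%) and in 0.889% of fibroblasts (0.724% to 1.09%). In perivascular cells it was found in 0 of 657, which allows a share of up to 0.457%. Thinned to 2000 UMIs, the immune and fibroblast shares were 21.7% and 0.358%. At that depth 0 of 1567 vascular endothelial cells allow up to 0.191%, and 0 of 644 perivascular cells, a smaller class, allow a share above that of fibroblasts. Pooled over libraries, the fibroblast share is thus small, above the limit for vascular endothelial cells and within that for perivascular cells. Of the 36 thinned fibroblasts with an Il1rn UMI, 9, 10 and 7 were in rest replicate 2, peak replicate 2 and resolved replicate 1, the libraries of run 2. That run held 299 of the 1769 vascular endothelial cells, so these shares do not measure the difference within a library.

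Most fibroblast Il1rn came from 1 subset and 1 run. The Cxcl5 subset held 120 of the 149 UMIs, with a mean of 7.49 CPM, and was the highest subset in 5 of the 6 libraries where it had 10 cells or more. The Prg4 subset had 0 UMIs. By run the fibroblast means were 0.189, 6.14, 0.971 and 0.134 CPM, and the 3 libraries of run 2 (5.28, 5.72 and 7.44 CPM) lay above all 9 others. Neutrophil markers, which mark the immune class, were found in fibroblasts too: 9 of 9 listed genes, with a summed level of 1.66 to 69.5 CPM per library, S100a8 the most abundant and none at 0. By run this sum was 2.50 to 6.86, 15.4 to 69.5, 18.5 to 42.4 and 1.66 to 16.6 CPM. Within immune cells Il1rn amounted to 0.0169% to 0.139% of the neutrophil sum of the same library. In fibroblasts of run 2 it amounted to 7.60% to 48.3%. Relative to the monocyte and macrophage sum it amounted to 0.216% to 1.54% in immune cells and to 59.7% to 117% in those fibroblasts. In fibroblasts of run 2 both ratios were above those in the immune class. The immune ratios come from 3 libraries, with 1 of them, peak replicate 2 with 39 immune cells, in run 2. What part RNA of other cells had in the Il1rn of fibroblasts was not tested.

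Il1r1 encodes the signalling receptor for IL-1. In fibroblasts its lowest, median and highest values were 29.3, 48.1 and 100.3 CPM. In perivascular cells they were 64.8, 127 and 255 CPM. Perivascular cells were higher than the fibroblasts of the same library in 12 of 12, even though the ranges overlap across libraries. Fibroblasts over perivascular cells came to −1.03 on the log2 scale (SE 0.14, adjusted p = 4.86e-10). Vascular endothelial cells were lower than fibroblasts, with 9.34, 24.2 and 60.9 CPM (log2 1.36, SE 0.15, adjusted p = 1.72e-13; lower in 11 of 12). Osteoblasts (log2 1.35), tenocytes (1.79) and chondrocytes (0.87) were lower as well, in 12 of 12, 12 of 12 and 8 of 8 libraries. Proliferating cells could not be separated from fibroblasts (log2 0.37, adjusted p = 0.0718; higher in 3 of 6). Immune cells had 0 Il1r1 UMIs, and fibroblasts were at least 6.63-fold higher.

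An Il1r1 UMI was present in 26.0% of fibroblasts (25.2% to 26.9%), in 40.8% of perivascular cells (37.1% to 44.6%; median depth 3883 UMIs) and in 0 of 112 immune cells, which allows up to 2.68% (3720 UMIs). Thinned to 2000 UMIs, fibroblasts were at 10.8% and perivascular cells at 24.8%. Perivascular cells led fibroblasts on either count although they were the shallower class. Proliferating cells, at a median of 12478 UMIs, had a larger share before thinning (46.4%) and a smaller one than perivascular cells after it (12.6%). Within fibroblasts Il1r1 was highest in the Ifi205 subset (mean 124 CPM, highest in 9 of 12 libraries), whose leading genes include the chemokine genes Ccl7 and Ccl2. The Cxcl5 subset (101 CPM) and the Inmt subset (96.2 CPM, highest in the other 3 libraries) followed. The Prg4 subset was at 13.2 CPM, so lining-like fibroblasts were again at the low end.

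Il1rap encodes the chain shared by both receptors. Fibroblasts had 3.32, 4.91 and 7.88 CPM in the lowest, median and highest library. Schwann cells had 52.5, 52.7 and 60.9 CPM in their 3 libraries, from 11 UMIs. All 3 Schwann values lie above every fibroblast value. Fibroblasts over Schwann cells came to −2.96 on the log2 scale (SE 0.57, adjusted p = 2.91e-05). Without run 4, which leaves 1 library with Schwann cells, it was −2.76 and no longer called (adjusted p = 0.168). A Schwann cell carried an Il1rap UMI in 15.0% of cases (9.42% to 22.9%; median depth 2780 UMIs), a fibroblast in 3.19% (2.87% to 3.55%) and a vascular endothelial cell in 1.07%. Thinned to 2000 UMIs, Schwann cells were at 7.78% and fibroblasts at 1.07%.

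Osteoblasts exceeded fibroblasts by less for Il1rap, with 4.46, 7.63 and 16.6 CPM. They were higher in 12 of 12 libraries with overlapping ranges. The log2 fold change of fibroblasts over osteoblasts was −0.57 (SE 0.23), near the threshold (adjusted p = 0.0433). It was no longer called without any 1 of rest replicates 1, 2 or 3, resolved replicates 1, 2 or 3, or resolving replicate 3, with log2 values from −0.59 to −0.50 and adjusted p from 0.0515 to 0.1. At a Leiden resolution of 0.5 it was −0.21 (adjusted p = 0.484), and without the filter on low counts −0.51 (0.0975), not called in either. Vascular endothelial cells were the only class called lower than fibroblasts (log2 1.26, SE 0.31, adjusted p = 0.000205; lower in 11 of 12). Among subsets with 10 cells or more in all 12 libraries, Inmt had the highest mean, 9.21 CPM, and was highest in 4 of them. Il1rap was called in 1 comparison as higher and in 2 as lower of 11, the fewest of the 6 genes. Against chondrocytes it was not called (log2 0.58, adjusted p = 0.271) but was without resolving replicate 1 (1.45, adjusted p = 0.0201).

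Il1rl1 encodes ST2, the receptor for IL-33. Its coding transcripts end at 4 separate 3′ positions in the annotation, and the counts do not separate its membrane-bound and soluble forms. Fibroblasts had 4.70, 34.5 and 129 CPM in the lowest, median and highest library, the widest range of the 6 genes other than Il1rn. Proliferating cells had 103, 171 and 212 CPM and were higher than the fibroblasts of the same library in 6 of 6. Across all libraries the ranges overlap. The log2 fold change of fibroblasts over proliferating cells was −0.86 (SE 0.28, adjusted p = 0.0144). Without resolved replicate 2 it was −0.79 and not called (adjusted p = 0.0541), without run 3 it was −0.63 and not called (0.226), and DESeq2 did not call it (−1.26, adjusted p = 0.334).

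Il1rl1 was called higher in fibroblasts than in 8 of 11 classes. Vascular endothelial cells had at most 5.29 CPM (log2 5.27, SE 0.55, adjusted p = 3.72e-14; lower in 12 of 12), and tenocytes (3.79) and perivascular cells (3.89) were lower in 12 of 12 as well. At a Leiden resolution of 0.5 the tenocyte difference was 0.54 and not called (adjusted p = 0.264). Without rest replicate 3 it was 4.81, and without rest replicate 2 the perivascular difference was 4.90. Immune cells had 0 UMIs, with fibroblasts at least 9.30-fold higher, a call that was lost without peak replicate 2 (adjusted p = 0.147). Muscle cells also had 0, with fibroblasts at least 5.61-fold higher, a call that was lost at a Leiden resolution of 0.5 (adjusted p = 0.0585), with cells thinned to 2000 UMIs (0.0536) and without run 2, 3 or 4 (0.0607 to 0.0667). Erythroid cells, with 6 UMIs and a mean of 42.6 CPM over 2 libraries, could not be separated from fibroblasts (log2 1.06, adjusted p = 0.559). In osteoblasts 1 library stood alone: peak replicate 1 had 74.5 CPM from 69 UMIs in 2 of 136 cells, of which 41 were in 1 cell. Osteoblasts of the other 11 libraries held at most 5 UMIs each. The log2 fold change over osteoblasts was 2.02 (SE 0.37, adjusted p = 2.97e-06; higher in 11 of 12) and 4.06 without that library.

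A UMI of Il1rl1 was found in 10.9% of fibroblasts (10.3% to 11.6%), in 43.0% of proliferating cells (39.5% to 46.7%; median depth 12478 UMIs) and in 0.452% of vascular endothelial cells. Thinned to 2000 UMIs, these were 5.42%, 18.3% and 0.128%. The fibroblast share pools all libraries, whereas the libraries with 10 or more proliferating cells were all in runs 2 and 3, where Il1rl1 in fibroblasts was also higher, so these shares do not measure the difference within a library. Among subsets the Cxcl5 subset averaged 126 CPM over the 6 libraries that had it, all in runs 2 and 3, and was highest in 3 of them. The Hp subset averaged 83.0 CPM, the C1qtnf3 subset 79.4 and the Prg4 subset 34.1, over libraries that include run 4. Within run 2 the means were 170.5 CPM in the Hp, 153 in the C1qtnf3 and 133 in the Cxcl5 subset. Within run 3 they were 85.4, 45.5 and 119 CPM, with 89.9 in the Prg4 subset, so the order of the subsets changed with the run. The Inmt subset was at 2.45 CPM and the Pi16 subset at 3.95 CPM. In the Inmt and Pi16 subsets Il1rl1 was thus low while Il33 and Il1r2 were high.

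Il1r2 encodes the decoy receptor. Fibroblasts had 5.48, 21.3 and 67.0 CPM in the lowest, median and highest library. Immune cells had 116, 174 and 275 CPM in 3 libraries, where fibroblasts had 9.99, 5.48 and 8.90. All 3 immune values lie above every fibroblast value. The log2 fold change of fibroblasts over immune cells was −3.71 (SE 0.49, adjusted p = 1.34e-09), −4.39 without peak replicate 2 and −3.10 without resolving replicate 2. In immune cells Il1r2 amounted to 0.0856% to 0.199% of the neutrophil marker sum, and in fibroblasts to 14.4% or more of theirs in each library. Perivascular cells, with 0, 14.4 and 50.9 CPM, could not be separated from fibroblasts (log2 0.06, adjusted p = 0.896; fibroblasts higher in 7 of 12), but with cells thinned to 2000 UMIs fibroblasts were called higher (0.94, adjusted p = 0.0197). The perivascular means by run were 1.64, 40.3, 21.0 and 9.59 CPM, so these cells were high in other runs than the fibroblasts. Proliferating cells (log2 1.34, adjusted p = 0.0029; lower in 6 of 6; 2.46 without run 2 and not called, adjusted p = 0.0561), vascular endothelial cells (3.62; 12 of 12) and osteoblasts (5.37; 12 of 12) had less than fibroblasts. Muscle cells had 0 UMIs, with fibroblasts at least 6.79-fold higher.

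The share of cells with an Il1r2 UMI was 28.6% in immune cells (21.0% to 37.5%), 8.22% in fibroblasts (7.71% to 8.77%) and 0.359% in osteoblasts. Thinned to 2000 UMIs, these were 17.9%, 4.26% and 0.0727%. The Inmt subset, which has Il1r2 among its 10 leading genes, averaged 95.8 CPM and was highest in 10 of 12 libraries. The Pi16 subset followed at 58.8 CPM, with libraries from 0 to 204, and the Ifi205 subset at 40.8. The Prg4 and Hp subsets were at 1.34 and 1.91 CPM.

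**Figure D2:**
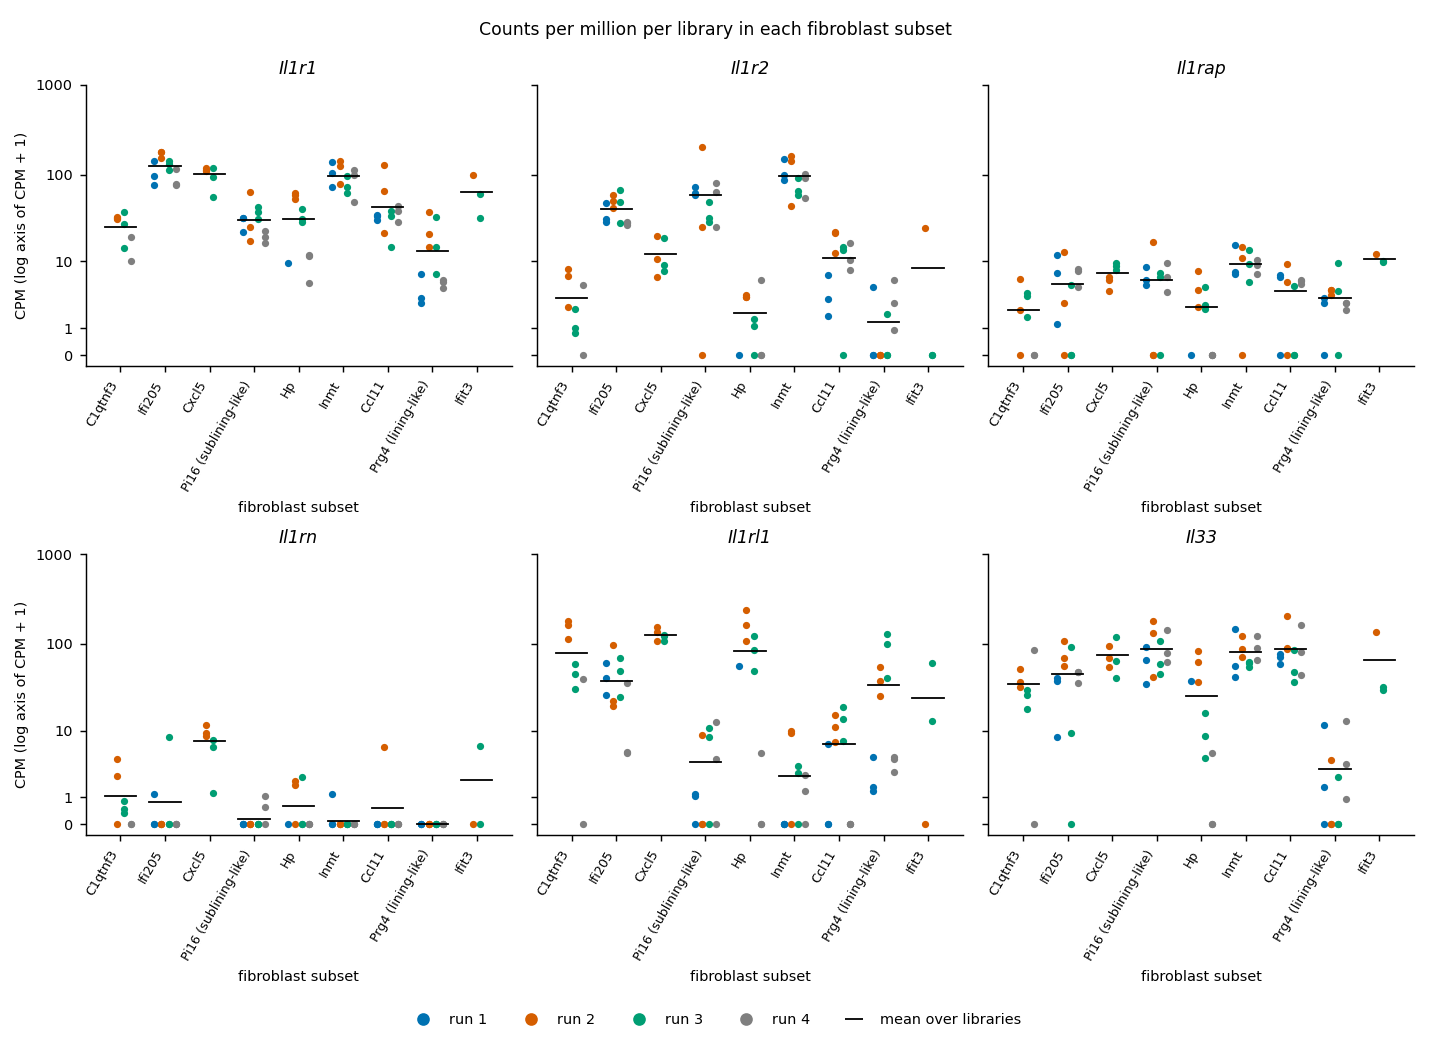
Level of each gene in CPM (vertical, log axis of CPM + 1) in 9 fibroblast subsets named by their leading gene (horizontal). Points are libraries with at least 10 cells of the subset, coloured by run, and bars are means over those libraries. Il1r1 is highest in the Ifi205 subset and Il1r2 in the Inmt subset, and Il1rl1 is near 0 in the Inmt and Pi16 subsets.

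The order of the classes by mean CPM was tested between neighbours, with a two-sided exact permutation test over the libraries that had both classes and adjustment over 61 pairs. Osteoblasts over fibroblasts for Il1rap was the 1 pair that differed (exact p = 0.000488, the smallest that 12 libraries can give; adjusted p = 0.0298; higher in 12 of 12). With a pseudocount of 10 in place of 1 the count was also 1. Fibroblasts over tenocytes for Il1rn came next (exact p = 0.00195, adjusted p = 0.0596; higher in 10 of 12). With 8 libraries the exact test cannot go below p = 0.00781, with 6 not below 0.0312 and with 3 not below 0.25, so the lead of immune cells in Il1rn and Il1r2 and of Schwann cells in Il1rap could not pass it. Pairs with all libraries one way, such as Il1r1 in perivascular over proliferating cells (6 of 6) and in fibroblasts over chondrocytes (8 of 8), did not pass either. The test could thus place few neighbours in the order.

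The second comparison asked whether fibroblast levels follow the label. The rest libraries had 58.2, 94.8 and 35.1 CPM of Il1r1, and the peak libraries 50.6, 93.8 and 42.7. For Il1rl1 the rest libraries had 4.77, 107 and 53.5 CPM and the peak libraries 17.5, 129 and 5.27. The groups overlap in both genes, and the highest library of each group is the one from run 2. For Il33 the rest libraries had 48.3, 80.3 and 24.5 CPM and the peak libraries 28.7, 67.5 and 46.7. Il1r2 was at 36.1, 20.0 and 7.27 CPM at rest and at 54.7, 9.99 and 20.9 at peak. These groups overlap too. The same held for resolving and resolved libraries: each of the 18 comparisons of a member with rest overlapped. Of all genes, too, only 3.48% for peak, 3.94% for resolving and 2.37% for resolved had groups that did not overlap.

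In edgeR 0 genes of 11707 were called at peak, resolving or resolved against rest (0% of genes in each), the 6 members included. At an unadjusted p under 0.05 edgeR had 108, 103 and 37 genes, where DESeq2 had 75, 70 and 25 and also called 0. With the run as a block edgeR had 319, 362 and 396 genes at that p and called 0. On simulated counts the edgeR test of peak against rest, without a block, recovered 12.7% of log2 changes of 1 and 61.5% of those of 2. Changes of that size could thus be missed. Among members the largest estimates were those of Il1rn and Il1rl1 at resolving, with log2 −2.12 (SE 1.66) and −1.38 (SE 1.33), and adjusted p = 0.998 for both. The standard errors show how wide the spread within a label was. No resolving library was in run 2, where Il1rn and Il1rl1 were highest, whereas rest replicate 2 was. This fit had no block for run, so label and run are not separated in these estimates.

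By run the picture was different. Among runs 56.8% of the 11707 genes were called (6652), by a quasi-likelihood F test at an adjusted p under 0.05, and so were 5 of the 6 members. Since the libraries also group by run in their expression, this test describes that grouping and is no independent evidence for it. Il1rl1 had 4.77 to 17.5 CPM in run 1, 107 to 129 in run 2, 51.4 to 63.8 in run 3 and 4.70 to 11.9 in run 4 (adjusted p = 2.97e-07). Runs 2 and 3 lay apart from each other and above runs 1 and 4. Il1r1 had 50.6 to 58.2 CPM in run 1, 93.8 to 100.3 in run 2, 34.6 to 45.5 in run 3 and 29.3 to 45.1 in run 4 (adjusted p = 5.06e-06). Run 2 was highest and stood clear of the others. Il1r2 had 36.1 to 67.0, 9.99 to 21.8, 5.48 to 8.90 and 20.9 to 36.5 CPM in runs 1 to 4 (adjusted p = 2.84e-05). Its highest run was thus run 1 and its lowest run 3. Il1rn followed run 2, as given above (adjusted p = 2.22e-06). Il33 was lowest in run 3, at 24.5 to 30.3 CPM, and highest on average in run 2, at 59.6 to 80.3 (adjusted p = 0.00357). Il1rap, with run means from 4.06 to 6.30 CPM, was not called (adjusted p = 0.25).

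**Figure D3:**
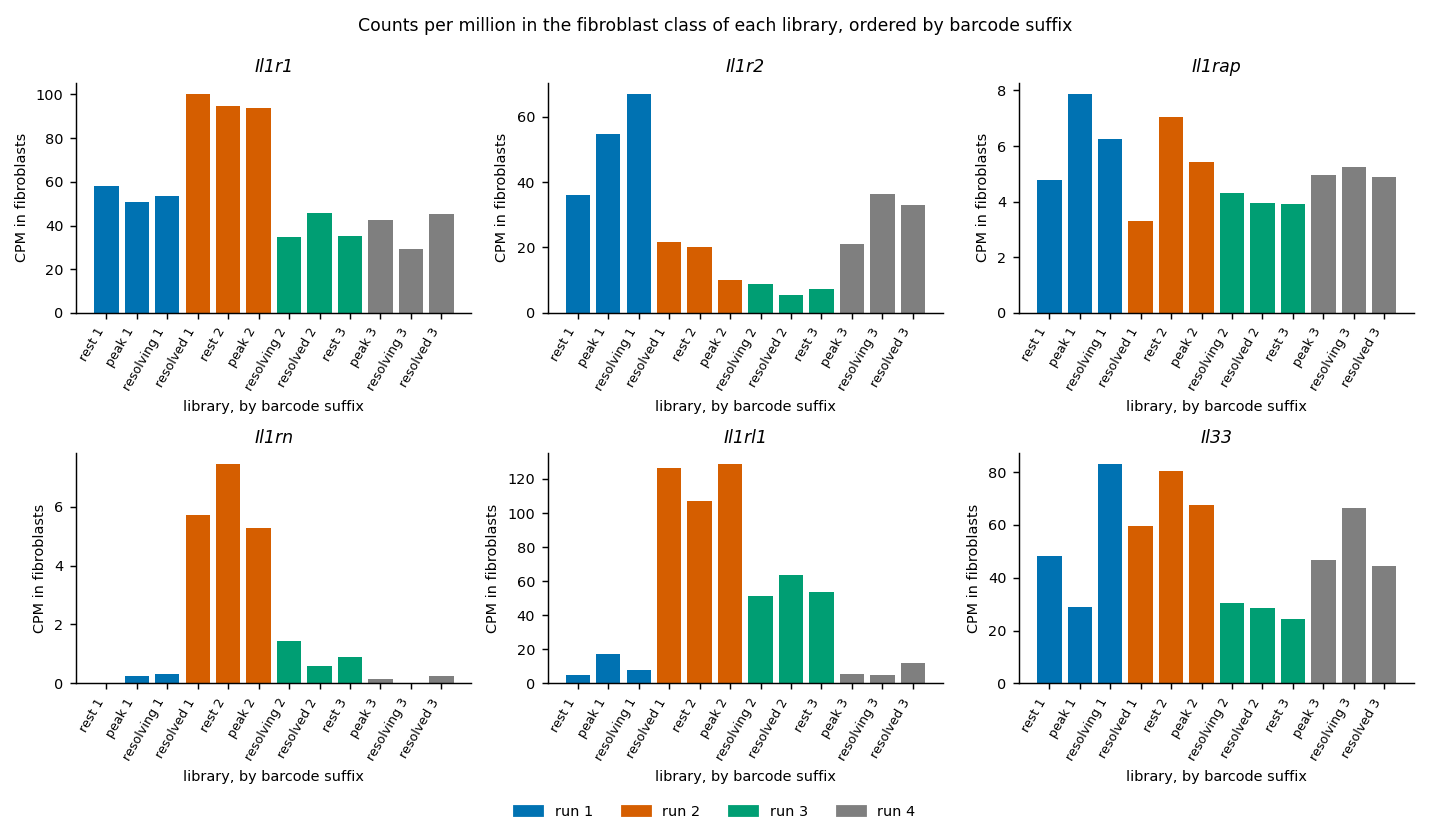
Level of each gene in CPM (vertical) in the fibroblasts of the 12 libraries (horizontal), ordered by barcode suffix and coloured by run, 1 bar per library with no error bar. Il1rl1 is 107 to 129 CPM in run 2 and 4.70 to 11.9 in run 4, whereas Il33 ranges from 28.7 to 82.9 within run 1.

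Runs also differed in which fibroblast subsets they held. The Cxcl5 subset made up 41.3% of run 2 fibroblasts and the C1qtnf3 subset 43.0% of those of run 3. The Inmt and Pi16 subsets made up 28.9% and 27.1% of run 1, and the Pi16 and Ifi205 subsets 26.0% and 24.1% of run 4. Within the Ifi205 subset alone, with 40 to 242 cells per library, 3.34% of 4523 genes were called among runs (151). Of the members, 4 had counts enough to be tested there and edgeR called 0, with adjusted p of 0.107 for Il1r1, 0.32 for Il1r2, 0.343 for Il1rl1 and 0.165 for Il33. DESeq2 was not run on the subset. In that subset Il1r1 was still highest in run 2, at 155 to 179 CPM against 77.3 to 144 in the others. Il33 was also highest there, with means of 29.4, 78.4, 33.6 and 44.3 CPM in runs 1 to 4. The means of Il1r2 were 36.2, 50.7, 48.2 and 28.2 CPM and those of Il1rl1 were 43.0, 46.9, 48.1 and 15.8, so these 2 genes did not keep the order of runs seen in all fibroblasts. Fewer cells and UMIs enter this test than the test of all fibroblasts. Other subsets were not tested. In the Prg4 subset Il1rl1 had 1.38 to 4.64, 26.0 to 55.4, 41.5 to 129 and 2.78 to 4.64 CPM in runs 1 to 4, and in the Hp subset its means were 57.0 (1 library, 6 UMIs), 170.5, 85.4 and 1.75 CPM. Its order by run was thus not the same in each subset.

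The other genes of the pathway were taken from lists named by function, which were chosen with earlier results of these data known. In the response list, Cxcl5 and Saa3 are leading genes of the Cxcl5 subset. Ccl7, Ccl2, Tnfaip6, Ptx3 and Cxcl1 are leading genes of the Ifi205 subset. Counts from this list therefore describe its genes and are no independent evidence about fibroblasts. Of 27 known IL-1 responses of fibroblasts, 26 were tested between classes. Against vascular endothelial cells 17 were higher in fibroblasts and 4 lower, beside 26.7% and 26.6% of all genes. The median log2 fold change was 2.74 where that of all genes was −0.00. The largest differences were those of Cxcl5 (6.16) and Saa3 (6.15) upwards and of Csf3 (−4.81), Icam1 (−1.63) and Nfkbia (−0.82) downwards. Fibroblasts thus held most of this list against endothelium. Against perivascular cells, the class with more Il1r1, 11 were higher and 8 lower, beside 22.8% and 17.6% of all genes. The median was −0.19 where that of all genes was 0.11. Here Saa3 (6.27), Ccl20 (4.26) and Mmp3 (4.22) were highest relative to perivascular cells and Il6 (−3.75), Steap4 (−1.68) and Mmp9 (−1.66) lowest. The list was thus divided between fibroblasts and the class with more Il1r1. Against osteoblasts 15 were higher and 2 lower, beside 17.1% and 13.5% of all genes. The median was 1.73 where that of all genes was 0.03.

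Of 9 further ligands and soluble antagonists 2 were tested. Il18 was higher in fibroblasts than in vascular endothelial cells (log2 5.56). Il1b was lower in fibroblasts than in immune cells (log2 −9.38, adjusted p = 3.04e-24), with 361 of its 426 UMIs in immune cells and 24 in fibroblasts. Il1a had 12 UMIs in all cells. The UMIs of Il1b thus lay mostly outside the fibroblasts. Of 6 further receptors Sigirr alone was tested between classes and was lower in fibroblasts than in vascular endothelial cells (log2 −6.81). Of 17 shared signalling genes 12 were tested against vascular endothelial cells, 4 of them higher (Nfkb1 1.18, Irak3 1.14 and Irak1 0.63 the largest) and 4 lower (Irak2 −2.38, Ikbkb −0.81 and Irak4 −0.78). Of all genes 26.7% were higher and 26.6% lower, so these counts do not set the list apart.

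Among runs, 25 of 25 response genes tested were called, where 56.8% of all genes were. In 14 of them the highest run was run 2 and in 9 it was run 4, whereas of all genes 25.9% were highest in run 2 and 17.8% in run 4. The 3 with the smallest p were Ptgs2, Hif1a and Cxcl5. Ptgs2, which makes prostaglandin precursors, averaged 53.7, 304, 90.4 and 68.4 CPM in runs 1 to 4 (adjusted p = 7.22e-08). Hif1a averaged 64.7, 256, 178 and 75.0 CPM (adjusted p = 1.43e-07). Cxcl5 averaged 1.10, 1081, 132 and 13.8 CPM (adjusted p = 3.46e-07). All 3 were highest in run 2, the run with most Il1r1, Il1rl1 and Il1rn. In the Ifi205 subset alone 6 of 22 tested were called (Lif, Cxcl5, Ccl7, Ptgs2, Lcn2 and Hif1a). In the other lists 1 of 2 ligands (Il18), 1 of 1 receptor (Il1rl2), 10 of 17 signalling genes (Irak3, Peli2 and Myd88 with the smallest p) and 2 of 6 processing genes (Pycard and Casp4) were called among runs.

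Markers of other cells were summed in fibroblasts in the same way as the neutrophil list. Of 7 monocyte and macrophage genes 7 were detected, Lyz2 most, with 2.76 to 14.1 CPM per library in all. Of 7 mast cell genes 3 were detected, Hdc most, with 0 to 1.29 CPM in all and Cpa3, Mcpt4, Tpsb2 and Ms4a2 at 0. The mast cell list was thus near 0, whereas the monocyte and macrophage sum reached the levels of Il1rap and Il1rn in these cells. Of 7 genes of innate lymphoid and T cells 6 were detected, with 104 to 213 CPM in all, nearly all of it from Rora, and Cd3e was at 0. Of 20 genes known to respond to tissue dissociation 20 were detected, Fos most, with sums of 19486 to 23838, 14531 to 15567, 15599 to 18223 and 19318 to 26607 CPM in runs 1 to 4. The dissociation list was thus lower in runs 2 and 3, where Il1rl1 was higher, and its part in the levels of the members was not tested.

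All pairs of members were also counted together in single cells. Given first are the pairs with the same direction in 10 or more of the 12 libraries. Among fibroblasts thinned to 2000 UMIs, an Il33 UMI was found in 5.14% of cells with Il1rl1 and in 7.66% of cells without, lower in 12 of 12 libraries. Only 28 cells had both, and 6 of the 12 libraries held 10 or fewer cells with Il1rl1. An Il33 UMI was found in 11.7% of cells with Il1r2 and in 7.34% of cells without, higher in 11 of 12, with 50 cells that had both. An Il1r2 UMI was found in 5.98% of cells with Il1r1 and in 4.06% of cells without, higher in 10 of 12. For Il1rl1 the shares were 3.50% of cells with Il1r2 and 5.50% of cells without, lower in 10 of 12. In the other pairs fewer libraries shared a direction. An Il1rap UMI, for one, was found in 1.29% of cells with Il1r1 and in 1.05% of cells without, higher in 5 libraries and lower in 7. These shares are a description and were not tested.

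Over the 100 sums of classes and libraries, the gene of 9598 with the highest Pearson correlation of log2(CPM + 1) with Il33 was Nrn1 (0.72). The 3 highest for Il1rn were Wfdc21 (0.87), Ifitm6 and Tyrobp. For Il1r1 they were Slc7a2 (0.69), Hspb6 and Pde3a. The values describe patterns across sums that share libraries and depth. For Il1rap they were Ephb6 (0.54), Npc1 and Lrp4. For Il1rl1 they were Saa3 (0.75), Sec61g and Smoc1. For Il1r2 they were Plac8 (0.76), Txn1 and Dmkn. Il1rap thus had the weakest match.

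In GRCm38 with GENCODE M21, Il1r2 (ENSMUSG00000026073, chr1:40074079-40125231), Il1r1 (ENSMUSG00000026072, chr1:40225080-40317257) and Il1rl1 (ENSMUSG00000026069, chr1:40429570-40465415) lie on the plus strand within 391 kb. That span holds 4 protein-coding genes, all of the receptor family, Il1rl2 being the fourth. Il1rn (ENSMUSG00000026981, chr2:24336853-24351494), Il1rap (ENSMUSG00000022514, chr16:26581704-26730117) and Il33 (ENSMUSG00000024810, chr19:29925114-29960718) lie elsewhere. By mean CPM these 3 neighbours on chromosome 1 differed in their highest class. Il1r1 led in perivascular cells, Il1r2 in immune cells and Il1rl1 in proliferating cells. The means of immune and proliferating cells cover libraries of runs 2 and 3 alone, where Il1rl1 in fibroblasts was also higher. The 3 genes are compared further by their calls. All 3 were called higher in fibroblasts than in vascular and lymphatic endothelial cells, osteoblasts, chondrocytes, tenocytes and muscle cells. The adjacent Il18r1 and Il18rap were near 0 in fibroblasts, at 0.258 and 0.646 CPM. Il1r1 is overlapped by Gm38070 on the same strand, Il1r2 by 1 gene on each strand (Gm16894 and Gm37347) and Il1rap by Gm20319 on the other strand.

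**Figure D4:**
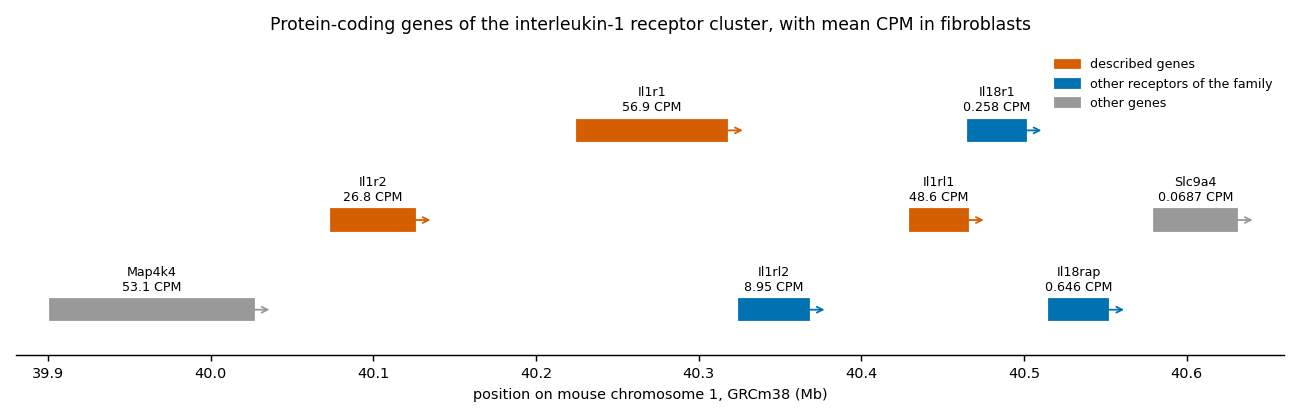
Protein-coding genes around the receptor cluster on mouse chromosome 1 (horizontal, Mb in GRCm38), with arrows for the strand and the mean CPM in fibroblasts under each name. Il1r2, Il1r1 and Il1rl1 (26.8, 56.9 and 48.6 CPM) are drawn in orange, other receptors of the family in blue and other genes in grey.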

How the data were processed

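Single-cell RNA was measured in 12 libraries. The deposited files hold whole UMI counts per gene and cell, which the authors made by alignment to mm10 with Cell Ranger; every library has the same median per deposited cell, so counts look brought to 1 depth before deposit. Cells with over 500 genes and 500 UMIs, under 5000 genes and under a limit of 20000 to 40000 UMIs that differed by library, as in the study's methods, were kept. They were scaled to 10000 UMIs, log-transformed and clustered in scanpy 1.11.5 (2000 variable genes, 1971 after listed genes were left out, 30 components, 20 neighbours, leidenalg 0.10.2 at resolution 1, seed 1). A cluster was named where at least 4 markers of a list were detected in 20% of cells at a log2 difference of 1, or 5 of 7 fibroblast markers in 30%. The 3 clusters that passed as fibroblasts but had chondrocyte markers among their leading genes were left unnamed. These limits were set after clusters were seen. Scrublet marked 56 cells (0.279%) as doublets, and none were removed.

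UMIs were summed per library and class or subset with at least 10 cells. Sums were tested in R 4.3.3 by edgeR 4.0.16 (TMM, filterByExpr, quasi-likelihood test, two-sided, Benjamini-Hochberg over all genes tested), with the library as a block between classes and no block between labels. Fitted values and calls were checked on simulated counts with known changes. For fibroblasts against osteoblasts, 81% of log2 changes of 1 and 98.3% of those of 2 were recovered. For peak against rest these shares were 12.7% and 61.5%. Replicate numbers were not used as pairs, since a rest library's deviations from its label's mean correlated with those of the library of the same number under another label at −0.518 to 0.631. Neighbouring classes were compared by exact permutation of signs over libraries. Shares of cells have 95% Wilson intervals, and a count of 0 was read as a limit of 3 counts. Positions come from GENCODE M21.

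Alternatives were DESeq2 1.42.0, RLE factors, no filter, no upper limits, at most 10% mitochondrial UMIs, removal of the 6% with the highest Scrublet scores, resolution 0.5, the unnamed fibroblast-marker clusters added, cells thinned to 2000 UMIs, no block, blocks of replicate and of run, only the 6 libraries compared, 1 subset alone, a pseudocount of 10, and leaving out each library in turn. Leaving out each run, and the counts of genes found together in cells, were chosen after seeing the data. The members and lists were chosen with earlier results of these data known. The genes named are the 6 members, the 3 genes of each list with the largest change each way (among runs, the smallest p), and the 3 genes most correlated with each member, where haemoglobin, immunoglobulin and unnamed gene models were not considered; single genes named beside them were chosen after their values were seen. Listed genes with 3 UMIs or fewer in the other class were not named.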

Additional observations from a re-analysis of the deposited data

Results flagged for a closer look

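Of 19 groups of 4 to 10 libraries examined for 1 value far from the others, 7 had one. Each is a highest library in a small class, and 5 of the 7 rest on 6 UMIs or fewer. In lymphatic endothelial cells Il1r2 was at 10.8 CPM in rest replicate 2 from 1 UMI, with 0 in the other libraries, and Il33 was at 44.6 CPM in rest replicate 1 from 3 UMIs, where the next library had 7.84. In chondrocytes Il1r2 was at 1.04 CPM in rest replicate 1 from 1 UMI, and Il33 was at 8.84 CPM in rest replicate 2 from 1 UMI, where the next had 2.55. Il1rap in chondrocytes was at 8.50 CPM in resolving replicate 1 from 9 UMIs (next 3.12). Il1rl1 in chondrocytes was at 35.7 CPM in resolving replicate 2 from 14 UMIs (next 13.5). Il33 in muscle cells was at 85.4 CPM in resolving replicate 3 from 6 UMIs, with 0 in the other libraries. What set these libraries apart was not tested.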

How the results depend on the processing

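Over the 42 called comparisons of members between classes, 24 kept their call under each of the 26 settings tried and 18 lost it under at least 1, while 6 further comparisons gained one. Leaving out 1 library gave 32 to 36 higher and 5 to 7 lower calls, 5942 to 6671 genes and 5 to 5 members called among runs, and 0 to 0 genes and members called at each label. The replicate block also called 0 genes and 0 members at each label. Without upper limits on UMIs and genes the log2 fold change of Il1rn over chondrocytes reversed to −0.86; the cause was not tested. Within 1 subset 0 members and 151 genes were called among runs, on fewer cells, and thinning to 2000 UMIs gave 3539 genes. Thinning lowered the share of fibroblasts with a UMI to 10.8% for Il1r1, 4.26% for Il1r2, 1.07% for Il1rap, 0.358% for Il1rn, 5.42% for Il1rl1 and 7.52% for Il33, by its own construction. DESeq2 called 29 comparisons higher. Of alternatives chosen after seeing the data, leaving out each run in turn lost a call in 14 of the 42 comparisons and gained one in 2 others.

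Limits: animals are pooled, 4 classes rest on 2 or 3 libraries or on runs 2 and 3 alone, counts of Il1rn and Il1rap are low, and the immune, Schwann and erythroid classes are small. A call missed here does not show that levels were alike.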
